A study of Mus musculus with 6 samples.

Results

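The 10 genes described here carry de novo lipogenesis, the making of fatty acids from carbohydrate carbon in the liver. They are the transcription factor genes Srebf1 and Mlxipl, the enzyme genes Acly, Acaca, Acacb, Fasn, Elovl6, Scd1 and Me1, and Thrsp. The rows were found by matching each Ensembl ID of the deposited table to its symbol in the GRCm38 annotation, and all 10 were among the 54682 rows and among the 14145 genes that passed a filter on low counts. Liver RNA was sequenced from 3 CD44 KO mice, which carry the targeted allele of the strain B6.Cg-Cd44tm1Hbg/J, and from 3 WT mice. For 10 days all mice of both genotypes had free access to the Lieber-DeCarli diet, whose ethanol content was 5% (vol/vol). On day 11 a single gavage gave 5 g of ethanol per kg of body weight, and livers were taken after 9 hours. The comparison therefore lies between ethanol-fed genotypes, and livers without ethanol were not analysed here. The labels state neither the ages nor the origin of the WT mice.

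In hepatocytes SREBP-1c, a product of Srebf1, responds to insulin, and ChREBP, the product of Mlxipl, responds to glucose metabolites; each activates genes of fatty acid synthesis. Citrate exported from mitochondria is split by ATP citrate lyase (Acly) to acetyl-CoA, which the acetyl-CoA carboxylases turn into malonyl-CoA. Fatty acid synthase (Fasn) builds palmitate from it with NADPH that comes in part from malic enzyme (Me1), Elovl6 lengthens palmitate to stearate, and Scd1 places a double bond to give oleate. Thrsp, known as Spot 14, is a small protein that follows lipogenic stimuli and is tied to fatty acid synthesis. The pathway is known for feeding triglyceride stores in fatty liver, alcohol-related fatty liver included.

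Total counts ran from 15493009 to 19346623 per library. Before trimmed-mean scaling, a count of 0 allows up to 0.155 to 0.194 CPM (3 counts per library, counting error only). Levels are given as CPM, the usual depth-scaled unit of counts, after trimmed-mean (TMM) scaling of the libraries. Cd44 itself had 1, 0 and 0 counts in CD44 KO mice 1, 2 and 3, against 590, 175 and 568 counts in WT mice 1, 2 and 3, so no library went against its label. The hepatocyte markers were abundant in all 6 libraries, with a summed level of 93520.1 to 115694 CPM in CD44 KO livers and 88700 to 101705 CPM in WT livers. The library of WT mouse 3 stood apart for the genes of this pathway, and fold changes of the 10 genes are given with and without it. In bulk tissue, fewer cells of a type and less RNA per cell cannot be told apart.

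Promoter windows are shown first for 4 of the genes, because the 10 genes varied together across mice. Of the 10, 9 (all but Scd1) matched RefSeq's promoter table of build GRCm38.p6, with 13 windows in all. The 250 bases before each transcription start were searched on both strands for the sterol regulatory element TCACNCCAC, the E-box CACGTG, the CCAAT box and the GC box GGGCGG. Capitals mark every match. Fasn lies on the minus strand of chr11:120824548-120824797, Thrsp on the minus strand of chr7:97417551-97417800, and Acly on the minus strand of chr11:100528001-100528250. These 3 were chosen because their levels differed most between mice among the windows that held a match, and the Srebf1 window at its most downstream start, minus strand of chr11:60210472-60210721, because Srebf1 encodes a transcription factor of the pathway.
Fasn: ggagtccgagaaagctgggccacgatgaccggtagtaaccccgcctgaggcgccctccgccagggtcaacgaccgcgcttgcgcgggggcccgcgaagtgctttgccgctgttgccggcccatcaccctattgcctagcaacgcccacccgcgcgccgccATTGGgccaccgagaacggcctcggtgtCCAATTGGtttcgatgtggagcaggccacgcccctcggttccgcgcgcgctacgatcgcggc
Thrsp: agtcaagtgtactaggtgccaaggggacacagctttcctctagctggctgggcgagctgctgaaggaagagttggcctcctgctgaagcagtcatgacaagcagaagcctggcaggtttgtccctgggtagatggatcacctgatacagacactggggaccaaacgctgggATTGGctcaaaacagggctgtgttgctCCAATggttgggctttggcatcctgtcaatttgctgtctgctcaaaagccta
Acly: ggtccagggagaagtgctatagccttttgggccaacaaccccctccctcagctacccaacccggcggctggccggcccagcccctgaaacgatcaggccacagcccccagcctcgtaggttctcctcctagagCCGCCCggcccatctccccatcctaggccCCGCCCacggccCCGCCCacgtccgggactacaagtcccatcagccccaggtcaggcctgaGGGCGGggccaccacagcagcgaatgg
Srebf1: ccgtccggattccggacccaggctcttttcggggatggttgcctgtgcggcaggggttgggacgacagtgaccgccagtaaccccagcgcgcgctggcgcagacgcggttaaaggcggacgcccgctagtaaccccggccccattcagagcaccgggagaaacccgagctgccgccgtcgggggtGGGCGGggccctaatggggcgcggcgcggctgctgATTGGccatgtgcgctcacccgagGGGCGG

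CCAAT, the box bound by NF-Y, stood in the windows of 6 of the 9 genes, against 37.5% of all 27025 genes in the table. In Fasn the letters occurred at -90 to -86, -62 to -58 and -59 to -55 from the start, the last pair overlapping on opposite strands. In Thrsp they stood at -79 to -75 and -52 to -48. GC boxes, which Sp1-type factors bind, stood in 4 of the 9 genes against 35.4% of all genes, with 4 of them in Acly. The Srebf1 window held a CCAAT match at -30 to -26 and GC boxes at -65 to -60 and -6 to -1. The element TCACNCCAC and the E-box CACGTG each matched in 1 of the 9 genes, Mlxipl in both cases, against 1.22% and 6.86% of all genes. The Elovl6 and Acaca windows held none of the 4 motifs. The Acaca window (chr11:84195188-84195437) lies inside the span of its gene, as does the Acacb window (chr5:114165268-114165517). Starts of Acaca and Acacb further upstream were not searched. Srebf1, Me1 and Mlxipl also had windows inside the gene span, the printed Srebf1 window among them. The TCACNCCAC match of Mlxipl lay in such a window (chr5:135106641-135106890). Its E-box lay in the window before the gene (chr5:135089640-135089889). The bases just after the printed Srebf1 window were found in no GENCODE M21 transcript of that gene. A match describes letters in these windows and does not locate a bound site.

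The 10 genes lie on 6 autosomes, with coordinates on GRCm38. Chromosome 11 holds Srebf1 (60199089 to 60222581), Acaca (84129672 to 84401651), Acly (100476353 to 100528000) and Fasn (120805846 to 120824547). Chromosome 5 holds Acacb (114146535 to 114250761) and Mlxipl (135089890 to 135138382). Elovl6 lies on chromosome 3 (129532355 to 129638495), Thrsp on chromosome 7 (97412938 to 97417730), Me1 on chromosome 9 (86581371 to 86695953) and Scd1 on chromosome 19 (44394455 to 44407879).

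No lipogenesis gene passed the test between genotypes. By edgeR's quasi-likelihood test with Benjamini-Hochberg adjustment over all 14145 genes, 0 of 10 had an adjusted p under 0.05, and 0 of 10 had an unadjusted p under 0.05; DESeq2 and limma-voom also called 0 of 10. Over all genes, edgeR called 0.00707% in either direction, DESeq2 2.4% and limma-voom 0%, while 12.6% had an unadjusted p under 0.05 in edgeR (5.1% higher and 7.46% lower in CD44 KO livers). Of the 10, 6 had a lower fitted level in CD44 KO livers, as had 51.1% of all genes, and 4 a higher one. Their median log2 fold change (CD44 KO over WT) was -0.19, beside -0.0079 over all genes. The direction was not stable: limma-voom gave a median of 0.079 and the fit with mouse number as a block 0.055, each with 3 of 10 lower. The 3 CD44 KO livers stood above WT mouse 3 and below the highest WT mouse for 10 of 10 genes, against 12.4% of all genes tested; with any WT mouse as the lowest, the share of all genes was 26.9%.

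**Figure D1:**
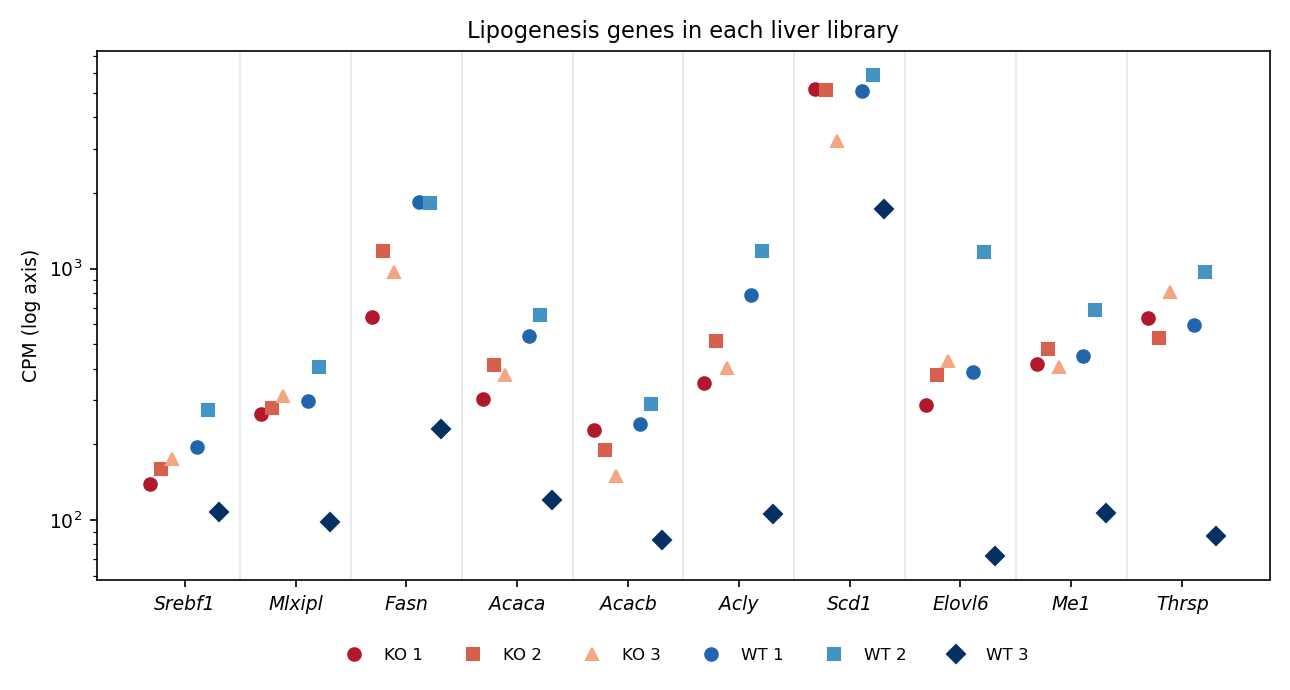
CPM (log axis) of each lipogenesis gene in the 3 CD44 KO libraries (red shades) and the 3 WT libraries (blue shades), 1 point per mouse. WT mouse 3 is the lowest point for each of the 10 genes, and WT mouse 2 is the highest for 9 of them.

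Srebf1 and Mlxipl, the transcription factor genes, had CD44 KO values inside the WT extremes. Srebf1 had 139, 160 and 175 CPM in CD44 KO mice 1, 2 and 3, against 195, 275 and 107 CPM in WT mice 1, 2 and 3. WT mice 1 and 2 thus lay above all CD44 KO mice and WT mouse 3 below them (log2 fold change -0.29 ± 0.31 SE, adjusted p = 0.779 in edgeR). The gene overlaps an exon of Rai1 on the opposite strand, which held 2856 counts beside 17751 of Srebf1, and no strand-marking step is described, so some reads are uncertain. Gene counts do not separate its SREBP-1a and SREBP-1c transcripts. Mlxipl had 265, 279 and 310 CPM in CD44 KO livers and 297, 407 and 98.6 CPM in WT livers (log2 fold change 0.09 ± 0.45 SE, adjusted p = 0.963 in edgeR). Its CD44 KO values fell within 1.17 times of each other, the smallest such ratio among the 10 genes.

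Acly, which makes cytosolic acetyl-CoA, gave the lowest fold change of the 10. It stood at 349.9, 517 and 403 CPM in CD44 KO livers, against 788, 1180.5 and 106 CPM in WT livers (log2 fold change -0.71 ± 0.74 SE, adjusted p = 0.767 in edgeR). The WT values spanned 11.2 times and enclosed all 3 CD44 KO values. Me1, which supplies NADPH, had 417, 479 and 408 CPM in CD44 KO livers and 449, 687 and 107 CPM in WT livers. It averaged 435 ± 38.8 CPM in CD44 KO livers and 414 ± 292 CPM in WT livers (SD, n = 3 each), nearly the same mean with a far wider spread in WT (log2 fold change 0.07 ± 0.58 SE, adjusted p = 0.980 in edgeR).

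Acaca encodes the cytosolic acetyl-CoA carboxylase, whose malonyl-CoA goes into fatty acids, and Acacb the form at the mitochondrial outer membrane, whose malonyl-CoA restrains fatty acid entry into mitochondria. Acaca had 302, 415 and 378 CPM in CD44 KO livers, against 538, 654 and 121 CPM in WT livers (log2 fold change -0.26 ± 0.55 SE). Acacb had 228, 190 and 150 CPM in CD44 KO livers, against 242, 290.5 and 83.4 CPM in WT livers (-0.12 ± 0.43 SE). WT mice 1 and 2 exceeded every CD44 KO mouse for both genes, and WT mouse 3 was below them for both (adjusted p = 0.901 and 0.948 in edgeR). Per kilobase of merged exon, the ratio of Acaca to Acacb was 0.746, 1.23 and 1.42 in CD44 KO mice 1, 2 and 3, and 1.25, 1.27 and 0.816 in WT mice 1, 2 and 3. By this measure the ratio was below 1 only in CD44 KO mouse 1 and WT mouse 3. In CPM, Acaca exceeded Acacb in all 6 libraries. The order of the pair thus depends on the merged exon lengths (17074 bp for Acaca and 9632 bp for Acacb), and only the shift between libraries does not.

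Fasn, the synthase itself, had 640, 1177 and 967 CPM in CD44 KO livers, against 1850, 1821 and 231 CPM in WT livers. WT mice 1 and 2 stood close together above the CD44 KO livers, and WT mouse 3 stood below them by at least 2.77 times (log2 fold change -0.49 ± 0.70 SE, adjusted p = 0.845 in edgeR). Elovl6 had 287, 378 and 428 CPM in CD44 KO livers and 389, 1163 and 72.0 CPM in WT livers. A single mouse, WT mouse 2, held it 2.72 times above the next highest library, and its WT range of 16.2 times was the widest of the 10 genes (log2 fold change -0.57 ± 0.85 SE, adjusted p = 0.849 in edgeR). The gene shares exon sequence with the antisense gene model Gm35986, which held 683 counts beside 44490 of Elovl6.

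Scd1, the stearoyl-CoA desaturase, made up 44.5% to 61.3% of the 10 genes' counts in CD44 KO livers and 44.3% to 63.1% in WT livers. Its levels were 5177, 5132 and 3226 CPM in CD44 KO livers, against 5102, 5913 and 1731 CPM in WT livers (log2 fold change 0.09 ± 0.44 SE, adjusted p = 0.963 in edgeR). All CD44 KO values lay inside the WT range. Reads shared with close copies in its gene family, such as Scd2, could have been split by the counting. Thrsp had 637, 531 and 809 CPM in CD44 KO livers and 599, 967 and 86.1 CPM in WT livers. It had the highest fold change of the 10 (0.26 ± 0.74 SE, adjusted p = 0.927 in edgeR), with WT mouse 1 inside the CD44 KO range.

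Levels per kilobase of merged exon ranked the genes alike at both ends in the 2 genotypes. Scd1 was highest, at 922 ± 228 CPM per kb in CD44 KO livers and 868 ± 453 in WT livers (SD, n = 3 each), then Thrsp at 301 ± 64.2 and 252 ± 202 CPM per kb. In CD44 KO livers Me1 (113 ± 10.1), Fasn (84.8 ± 24.7) and Acly (80.2 ± 16.2 CPM per kb) followed, and Fasn and Acly did not differ beyond their spread. Elovl6 (56.6 ± 11.2) and Mlxipl (51.4 ± 4.2) came next and overlapped, above Srebf1 (28.0 ± 3.27 CPM per kb). Acaca (21.4 ± 3.37) and Acacb (19.7 ± 4.07 CPM per kb) were lowest and also overlapped. In WT livers Acly (131 ± 103), Fasn (119 ± 84.6) and Me1 (108 ± 75.8 CPM per kb) changed places within a spread that covered all of them.

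WT mouse 3 carried the least RNA of this pathway. Its library was the lowest of the 6 for 10 of 10 genes, where 23.8% of all tested genes had their lowest value in it, and it lay more than 2 times below the next lowest library for 7 of 10 genes against 2.04% of all genes. Together the 10 genes took 0.824%, 0.958% and 0.668% of annotated counts in CD44 KO mice 1, 2 and 3, and 1.07%, 1.27% and 0.301% in WT mice 1, 2 and 3. The mean of WT mice 1 and 2 exceeded WT mouse 3 by 10.8 times for Elovl6, 9.31 times for Acly, 9.10 times for Thrsp and 7.94 times for Fasn. For Me1 and Acaca the ratio was 5.33 and 4.94 times. Mlxipl, Acacb and Scd1 stood at 3.57, 3.19 and 3.18 times and Srebf1 at 2.20 times, the smallest of the 10. Srebf1 thus stood closer to the other WT mice than any enzyme gene did. Fasn per Srebf1, as a ratio of CPM, was 4.61, 7.37 and 5.51 in CD44 KO mice 1, 2 and 3, and 9.46, 6.62 and 2.16 in WT mice 1, 2 and 3.

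**Figure D2:**
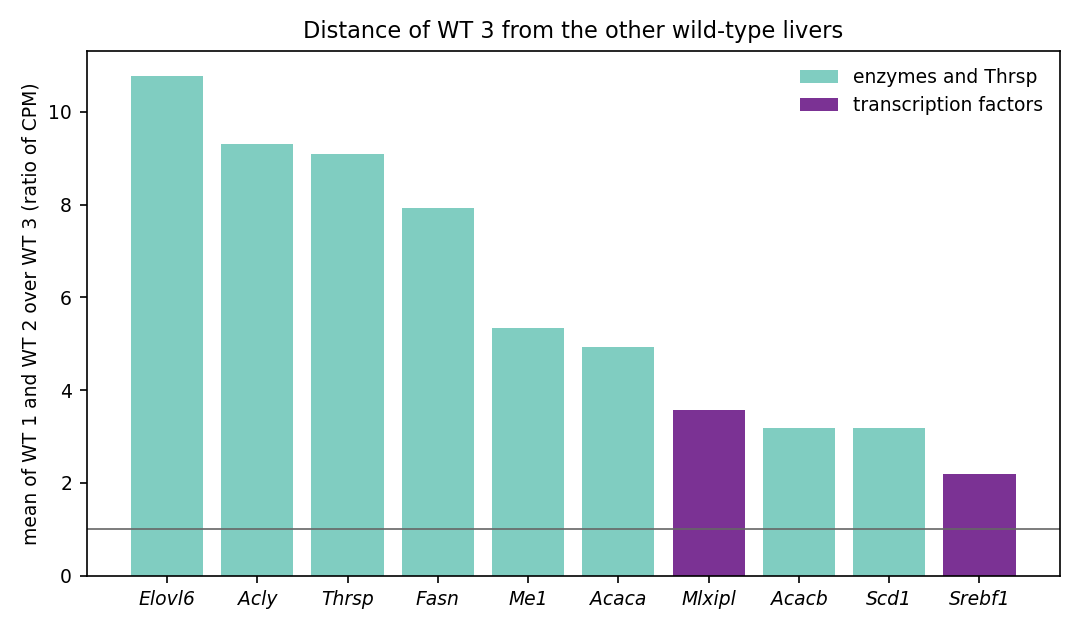
Ratio of the mean CPM of WT mice 1 and 2 to the CPM of WT mouse 3 for each lipogenesis gene; the line marks a ratio of 1. Elovl6 stands highest at 10.8 and Srebf1 lowest at 2.20, with the other transcription factor gene, Mlxipl, at 3.57.

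The WT livers were more widely spread than the CD44 KO livers for each of the 10 genes, with WT mouse 3 at the low end each time. By ratio of CPM, WT mice 1 and 2 alone stood closer together than the CD44 KO livers for Fasn, Scd1, Acacb and Acaca. For Acly, Elovl6, Me1, Thrsp, Srebf1 and Mlxipl they stood further apart. The highest over the lowest value ran from 1.17 to 1.84 times among CD44 KO livers and from 2.57 to 16.2 times among WT livers. A WT range of at least 4 times was reached by 7 of 10 genes, against 5.12% of all genes, and a CD44 KO range of that size by 0 of 10, against 2.18% of all genes. With 3 mice per genotype, 1 of them WT mouse 3, no test of the spreads was made. Across the 6 libraries the 45 pairs of the 10 genes had Pearson correlations of log2 CPM from 0.72 to 0.99 with a median of 0.92. These coefficients are descriptions: all pairs share the same 6 libraries, with WT mouse 3 lowest throughout.

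Without WT mouse 3 all 10 genes had a lower fitted level in CD44 KO livers, where 52% of all genes did. This mouse was singled out as the lowest library for 10 of 10 genes, so leaving it out raises each WT mean. A fall in each fold change and a narrower WT range are thus built into the choice. The shares over all genes given here come from genes not chosen that way. The median log2 fold change of the 10 became -0.53, beside -0.014 over all genes. Acly then gave -1.22 ± 0.23 SE, Elovl6 -1.09 ± 0.45, Fasn -0.98 ± 0.25, Acaca -0.71 ± 0.18, Srebf1 -0.58 ± 0.18 and Acacb -0.49 ± 0.19. The remaining 4, Me1 (-0.39 ± 0.20 SE), Mlxipl (-0.31 ± 0.17), Scd1 (-0.29 ± 0.25) and Thrsp (-0.25 ± 0.25), lay closer to 0. By edgeR's quasi-likelihood test, 0 of 10 passed an adjusted p of 0.05, as did 0% of all genes in that fit; the smallest adjusted p among the 10 was 0.225 (Acly). An unadjusted p under 0.05 with a lower level was reached by 5 of 10, Acly, Fasn, Acaca, Srebf1 and Acacb, against 6.26% of all genes. For those same 5 genes both remaining WT mice stood above all 3 CD44 KO mice, which held for 14.7% of all genes.

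**Figure D3:**
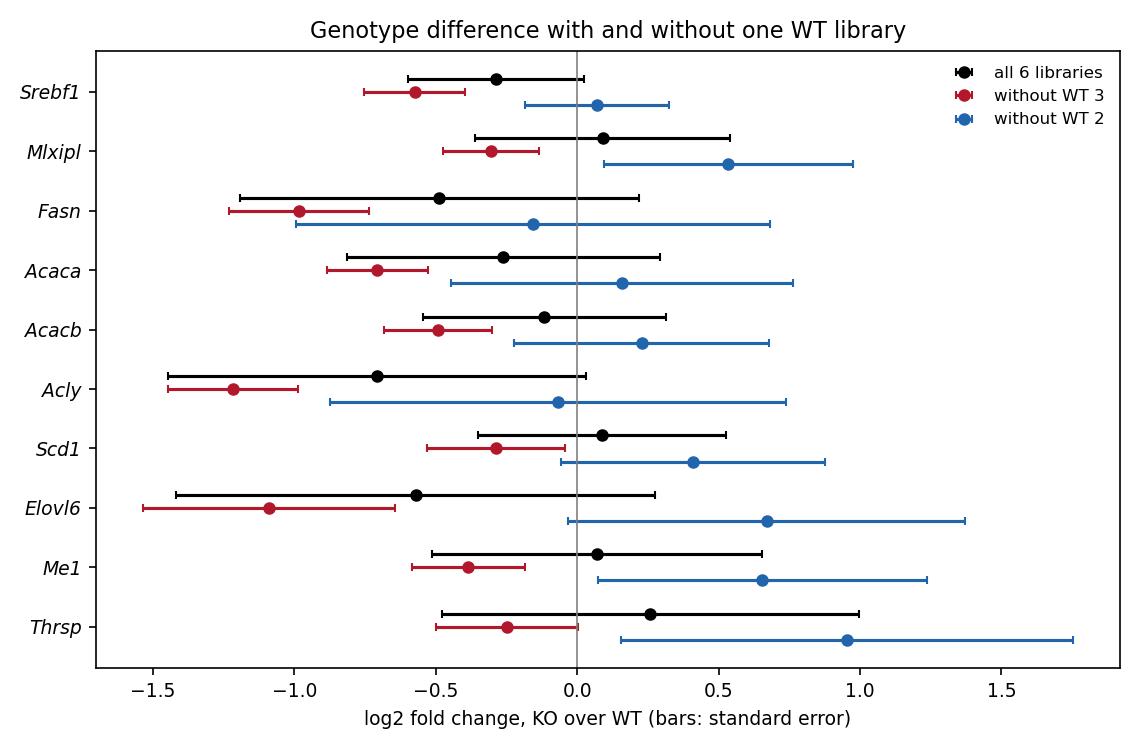
Log2 fold change (CD44 KO over WT) with its standard error for each lipogenesis gene, from all 6 libraries, without WT mouse 3 and without WT mouse 2. All 10 points lie below 0 without WT mouse 3, and 8 of 10 lie above 0 without WT mouse 2.

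Without WT mouse 2, the highest library for 9 of 10 genes (17.5% of all genes peaked there), the direction turned. Leaving out the highest library lowers the WT mean of those genes, so a rise in their fold changes is likewise built in. Only Fasn (-0.16 ± 0.84 SE) and Acly (-0.07 ± 0.81) then kept a lower fitted level in CD44 KO livers, where 49.5% of all genes did, and the median of the 10 became 0.32. Thrsp stood at 0.95 ± 0.80 SE, Elovl6 at 0.67 ± 0.70, Me1 at 0.65 ± 0.58 and Mlxipl at 0.53 ± 0.44. In that fit edgeR called 0 of 10, at an adjusted p of 0.618 or more, and 0.902% of all genes.

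Adipocyte transcripts stood highest in WT mouse 2. Fat cells also run this pathway, so markers of adipocytes were examined in the liver libraries. The summed level of 6 adipocyte markers was 21.6, 45.3 and 7.34 CPM in CD44 KO mice 1, 2 and 3, and 14.3, 141 and 22.5 CPM in WT mice 1, 2 and 3. Adipoq, the adipocyte hormone adiponectin, had 13, 54 and 0 counts in CD44 KO mice 1, 2 and 3 and 0, 200 and 0 counts in WT mice 1, 2 and 3. Cfd, or adipsin, had 49, 208 and 0 counts in CD44 KO livers and 0, 773 and 0 counts in WT livers. Lep and Retn were also at 0 counts in CD44 KO mouse 3 and WT mice 1 and 3, and Plin1 at 0, 0 and 2 counts there. All 6 markers had a lower mean in CD44 KO livers, with WT mouse 2 the highest library for each. For the markers other than Fabp4, CD44 KO mice 1 and 2 stood above WT mice 1 and 3. The lower means thus rest on WT mouse 2 for these markers. In WT mouse 1 the markers other than Fabp4 were at 0 counts. Fasn, Acly, Acaca, Srebf1 and Acacb were there above every CD44 KO mouse, while Elovl6, Thrsp, Mlxipl, Me1 and Scd1 were not. The part of fat-cell RNA in the lipogenesis values of WT mouse 2 or of any other mouse was not tested.

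**Figure D4:**
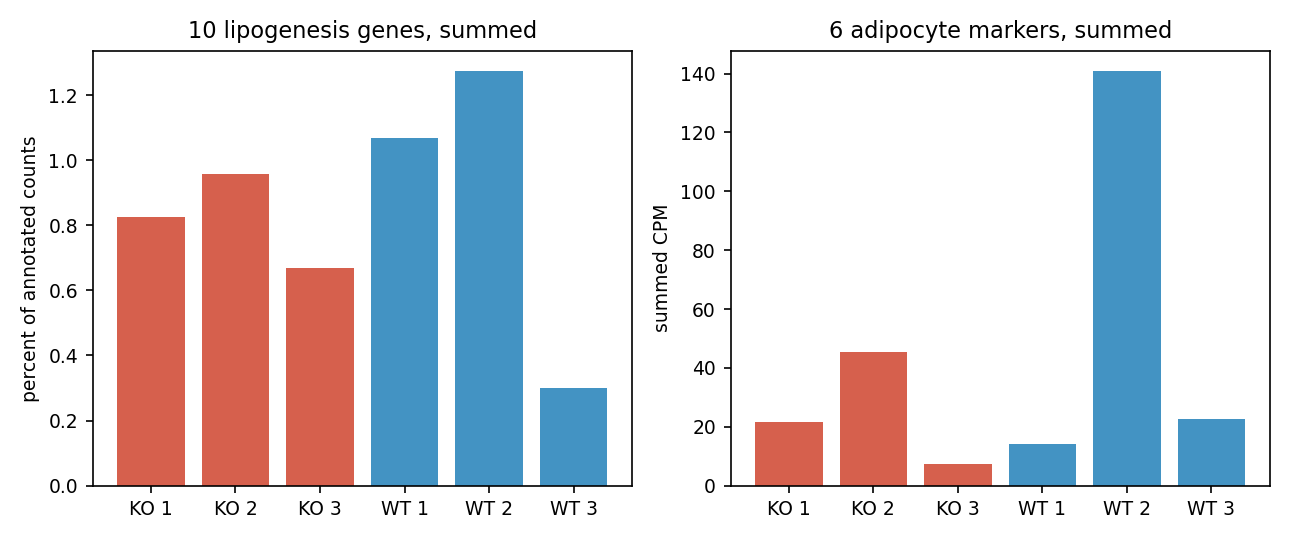
Left, percent of annotated counts held by the 10 lipogenesis genes in each library; right, summed CPM of 6 adipocyte markers. WT mouse 2 is highest in both panels (1.27% and 141 CPM). The lowest library is WT mouse 3 on the left (0.301%) and CD44 KO mouse 3 on the right (7.34 CPM).

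Among markers of other liver cells, those of endothelial cells were lowest in WT mouse 3, as the lipogenesis genes were. Their summed level was 224, 176 and 150 CPM in CD44 KO mice 1, 2 and 3, and 286, 190 and 108 CPM in WT mice 1, 2 and 3. WT mouse 3 was the lowest library for 4 of the 5 endothelial markers, against 23.8% of all genes tested. The part of endothelial cells in the result was not tested. Macrophage markers ordered the WT mice differently. Their summed level was 199, 226 and 214 CPM in CD44 KO mice 1, 2 and 3, and 630, 261 and 477 CPM in WT mice 1, 2 and 3, so WT mouse 3, lowest for lipogenesis, was the second highest and WT mouse 1, with high Fasn, the highest. All 8 had a lower mean in CD44 KO livers; their part in the lipogenesis values was not tested. WT mouse 3 was the lowest library for 2 of 6 stellate cell markers and for 4 of 8 hepatocyte markers. It was the lowest for 0 of the macrophage, neutrophil, cholangiocyte and pancreatic acinar markers. A tie at 0 counts was not scored as lowest. Ly6g, Cpa1, Ctrb1 and Pnlip, neutrophil and acinar markers, had such ties in WT mouse 3, so they could not be scored. Among hepatocyte markers WT mouse 3 had the lowest Alb (63868 CPM), Apob, Ttr and Serpina1c. It had the highest Apoa1 (7885 CPM), Cps1 (4882 CPM) and Tat (2485 CPM).

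Regulators that act on SREBP-1c and ChREBP did not pass the test. Of 17 tested (among them the SREBP escort Scap, the Insig retention proteins and the LXR receptors), 0 passed in edgeR in either direction and 0 had an unadjusted p under 0.05; DESeq2 called 0. Their median log2 fold change was 0.10, with 14 higher and 3 lower, where 51.1% of all genes were lower. The smallest p values belonged to Nr1h2, which encodes LXR beta (-0.22 ± 0.11 SE, adjusted p = 0.470), the insulin receptor substrate Irs1 (0.33 ± 0.21) and the coactivator Ppargc1b (0.42 ± 0.31). Nr1h2 had 55.2, 54.5 and 48.3 CPM in CD44 KO livers, against 58.1, 62.6 and 63.1 CPM in WT livers. It was the 1 gene of the 17 without overlap and with CD44 KO lower, against 9.42% of all genes. WT mouse 3 was the lowest library for 9 of the 17, against 23.8% of all genes.

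AMPK, the energy-sensing kinase that phosphorylates and inhibits acetyl-CoA carboxylase, and other direct regulators of this step gave 0 of 10 calls in edgeR and DESeq2 and 0 with an unadjusted p under 0.05 (median 0.10). Prkag2 (0.23 ± 0.13 SE) and Prkaa1 (-0.27 ± 0.16), a regulatory and a catalytic subunit, had the smallest p values. Trib3, a pseudokinase linked to breakdown of acetyl-CoA carboxylase, had 27.9, 224 and 170 CPM in CD44 KO livers and 36.5, 40.3 and 120.04 CPM in WT livers (1.10 ± 0.82 SE, adjusted p = 0.658 in edgeR). CD44 KO mouse 1 had the lowest Trib3 of all 6 libraries.

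The supply of carbon and NADPH showed no call in 14 tested genes by edgeR or DESeq2 (median -0.07). WT mouse 3 was the lowest library for 9 of the 14, against 23.8% of all genes. It lay more than 2 times below the next lowest library for 3 of them, against 2.04% of all genes. An unadjusted p under 0.05 in edgeR was reached by 3 of the 14, against 12.6% of all genes. Of these 3, 1 was higher in CD44 KO livers and 2, Pdk4 and G6pdx, were lower, against 5.1% and 7.46% of all genes. Pdk4, which restrains pyruvate oxidation, had 12.3, 16.8 and 12.3 CPM in CD44 KO livers and 28.9, 12.8 and 35.9 CPM in WT livers (-0.91 ± 0.36 SE, adjusted p = 0.367 in edgeR). It passed in edgeR without WT mouse 2, where 0.902% of all genes did. WT mouse 2 had the lowest WT value, inside the CD44 KO range, so leaving it out favours such a call. G6pdx, of the pentose phosphate pathway, gave -0.71 ± 0.22 SE (adjusted p = 0.270); it overlaps Ikbkg on the opposite strand, which held 17658 counts beside 882, and is uncertain. Pgd, the next NADPH-producing enzyme of that pathway and a gene chosen after its values were seen, had 153, 157 and 120 CPM in CD44 KO livers and 265, 303 and 96.3 CPM in WT livers, so WT mice 1 and 2 lay above and WT mouse 3 below all CD44 KO livers (adjusted p = 0.578 in edgeR).

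Downstream steps gave no call in edgeR or DESeq2. For desaturation, elongation and activation of fatty acids, 0 of 16 tested genes passed (median 0.05). At an unadjusted p under 0.05 in edgeR, 2 were higher and 1 lower, against 5.1% and 7.46% of all genes. Elovl3, an elongase of saturated chains, had 1.53, 1.05 and 3.63 CPM in CD44 KO livers and 0.218, 0.718 and 0 CPM in WT livers (2.77 ± 0.94 SE, adjusted p = 0.301), at a low level. Acsl3, which activates fatty acids, gave 0.48 ± 0.18 SE. Scd2, the desaturase copy of other tissues, had 12.1, 14.5 and 8.64 CPM in CD44 KO livers and 12.9, 20.2 and 32.0 CPM in WT livers (-0.88 ± 0.34 SE, adjusted p = 0.357). Its highest value thus came from WT mouse 3, where Scd1 was lowest. For triglyceride assembly, 0 of 10 tested genes passed and 0 had an unadjusted p under 0.05 (median -0.21). Gpam, the mitochondrial glycerol phosphate acyltransferase and a known SREBP-1c target, had 111, 137 and 124 CPM in CD44 KO livers, against 152, 139 and 156 CPM in WT livers (-0.26 ± 0.13 SE, adjusted p = 0.450). WT mouse 3 was the highest library for Gpam, unlike for the 10 lipogenesis genes. It was the lowest library for 4 of the 10 tested genes of triglyceride assembly, against 23.8% of all genes. For desaturation, elongation and activation it was the lowest for 7 of 16. Agpat1 (-0.30 ± 0.14 SE) and Lpin2 (-0.55 ± 0.27), which make and use phosphatidic acid, had lower means in CD44 KO livers.

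The related factor SREBP-2 governs cholesterol synthesis. All 12 of its listed genes had a higher fitted level in CD44 KO livers (median 0.63), where 51.1% of all genes had a lower one. edgeR called 0, with 3 higher at an unadjusted p under 0.05, against 5.1% of all genes. DESeq2 called 2 higher, Sqle and Lss, where it called 0.877% of all genes higher. Without WT mouse 3, 9 of 12 were higher (median 0.33) while 10 of 10 lipogenesis genes were lower. WT mouse 3 was the lowest library for 11 of the 12, as it was for lipogenesis, against 23.8% of all genes. Lss, lanosterol synthase, had 65.3, 70.3 and 51.8 CPM in CD44 KO livers, against 37.0, 35.8 and 36.7 CPM in WT livers (0.78 ± 0.14 SE, adjusted p = 0.227 in edgeR). Sqle, squalene epoxidase, had 193, 198 and 151 CPM in CD44 KO livers, against 95.6, 91.2 and 55.9 CPM in WT livers (1.16 ± 0.22 SE, adjusted p = 0.227 in edgeR). For 5 of the 12 genes (Lss, Sqle and Hmgcs1, with Idi1 and Cyp51 named after their values were seen) every CD44 KO mouse lay above every WT mouse, against 8.81% of all genes. Hmgcs1, an early enzyme of that route, had 220.1, 260.1 and 193 CPM in CD44 KO livers, against 146, 139 and 59.4 CPM in WT livers (0.97 ± 0.33 SE, adjusted p = 0.301).

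LXR, the oxysterol receptor, activates Srebf1. The 8 genes tied to LXR outside lipogenesis (Nr1h3 among them, which is also in the regulator list) gave 0 calls in edgeR and DESeq2 (median -0.02). At an unadjusted p under 0.05 in edgeR, 3 were lower, against 7.46% of all genes. Abcg5, a sterol transporter of bile, had 72.6, 70.2 and 68.7 CPM in CD44 KO livers, against 90.7, 79.2 and 86.9 CPM in WT livers (-0.28 ± 0.11 SE, adjusted p = 0.342). Its exons overlap those of the neighbouring Abcg8 on the opposite strand and its reads are uncertain. Abcg1 gave -0.80 ± 0.27 SE and Pltp, which overlaps the abundant Ctsa on the opposite strand, -0.33 ± 0.14. WT mouse 3 was the lowest library for 2 of the 8, near the 23.8% of all genes, and in neither more than 2 times below the next.

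**Figure D5:**
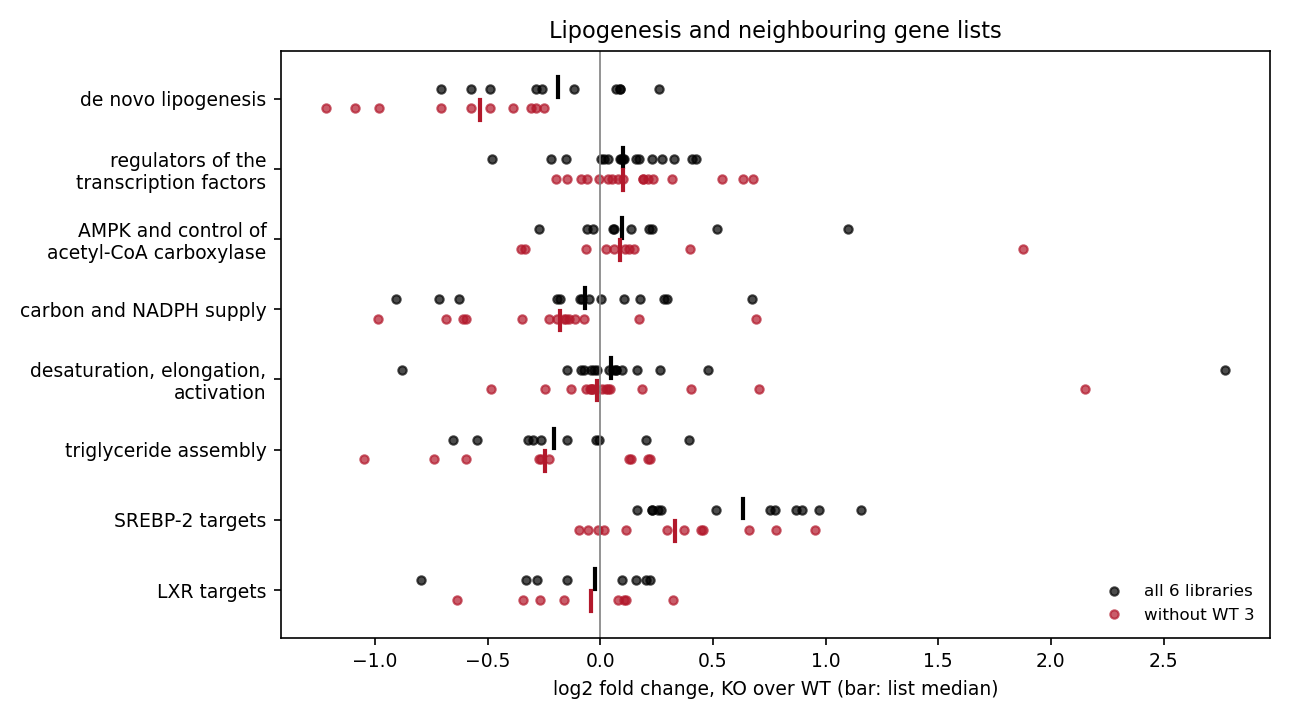
Log2 fold change (CD44 KO over WT) of each tested gene in the lipogenesis list and 7 neighbouring lists, from all 6 libraries (black) and without WT mouse 3 (red); bars mark list medians. The lipogenesis median is -0.19 with all libraries and -0.53 without WT mouse 3, while the SREBP-2 median stays above 0 at 0.33.

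Genes whose levels were most like the mean profile of the 10 were ranked by Pearson's r of log2 CPM over the 6 libraries among 4527 protein-coding genes with a mean log2 CPM of at least 5. Prkaa2, the second catalytic subunit of AMPK, came first (r = 0.999), with 98.8, 103 and 101 CPM in CD44 KO livers and 116, 139 and 55.0 CPM in WT livers. Slc6a9, a glycine transporter, followed (r = 0.994), then Pklr, the liver pyruvate kinase and a known ChREBP target (r = 0.993), with 574, 766 and 629 CPM in CD44 KO livers and 721, 1392 and 117 CPM in WT livers. Nsun2, an RNA methyltransferase, Xylb, xylulokinase, and Ftl1, the ferritin light chain, completed the 6 (each r = 0.992); reads of Ftl1 may be shared with its pseudogenes. All 6 had WT mouse 3 lowest and WT mouse 2 highest, so the likeness rests on the same libraries. None passed in edgeR (adjusted p from 0.953 to 0.996). That is largely built in, because the profile they were chosen to follow places the CD44 KO mice between the WT extremes. Pearson's r compares the order and shape of levels and not the size of the change. Nsun2 ran only from 72.6 CPM in WT mouse 3 to 109 CPM in WT mouse 2.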

How the data were processed

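Poly(A) RNA from 6 livers, 1 library per mouse, was sequenced; random hexamers primed the cDNA and no strand-marking step is described, per the labels' protocols. Raw read counts, 1 row per Ensembl gene, were deposited by the authors. Per the submitters' processing notes, the build was GRCm38.p6 and the tools were featureCounts 1.5.0-p3, HISAT2 2.0.5 and StringTie 1.3.3b; annotation release, strand setting and multi-mapping: not given in the sources used here. Of 54682 rows, 54495 matched GENCODE M21; 150 unnamed gene models (0.273% to 0.509% of a library's counts) were left out. Total counts of 15493009 to 19346623 limit precision by counting error only.

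Groups came from sample titles. In R 4.3.3, edgeR 4.0.16 kept genes by filterByExpr, scaled by TMM and tested genotype with the robust quasi-likelihood F test, adjusted by Benjamini-Hochberg over 14145 genes (threshold 0.05). The standard error is the fold change over the root of F. DESeq2 1.42.0, limma 3.58.1 (voom), other scalings and filters, mouse number as a block and leaving out each mouse were alternatives. The fit was tested on simulated counts. No set test was made. With 3 against 3 mice an exact permutation test cannot reach the threshold, so none was used. Mice were replicates.

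The members and lists were chosen with earlier results of these data known. Named were the 10 genes, Cd44, up to 3 genes per list by smallest p, and the 6 genes most like the 10. A gene that this rule names is not reported here. The counts of genes by highest or lowest library and by range were chosen after the values were seen.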

Additional observations from a re-analysis of the deposited data

How the results depend on the processing

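The 10 lipogenesis genes gave 0 calls in edgeR and in all 14 alternatives. Their smallest adjusted p in any alternative was 0.225. Their direction was less stable: of 140 values under an alternative, 121 kept their sign and 19 did not. With limma-voom Acaca, Acacb and Elovl6 turned to 0.025, 0.032 and 0.13 on the log2 scale, and with mouse number as a replicate block to 0.013, 0.045 and 0.064. The mouse numbers share no source in the labels, and same-numbered mice did not vary together (correlations of -0.016, -0.018 and -0.010 for mice 1, 2 and 3), so the block is no pairing. Leaving out each mouse in turn gave log2 fold changes from -0.58 to 0.071 for Srebf1, -0.31 to 0.53 for Mlxipl, -0.71 to 0.16 for Acaca, -0.49 to 0.23 for Acacb, -0.29 to 0.41 for Scd1, -1.09 to 0.67 for Elovl6, -0.39 to 0.65 for Me1 and -0.25 to 0.95 for Thrsp. Fasn (-0.98 to -0.14) and Acly (-1.22 to -0.069) kept a negative sign. The median of the 10 turned to 0.079 with limma-voom and 0.055 with the replicate block. When a mouse was left out it ran from -0.53 without WT mouse 3 to 0.32 without WT mouse 2. Scaling and filters kept every sign.

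Over all genes edgeR called 1, Cd44. The count was 2 with library totals only, 91 with no low-count filter, 340 with DESeq2 and 0 with limma-voom, and 0 to 132 when a mouse was left out, the highest without WT mouse 2. Cd44 kept its sign, at -9.0 with limma-voom (adjusted p = 0.280) and -11.7 to -9.2 when a mouse was left out (adjusted p 0.000241 to 0.658). SREBP-2 targets had 2 calls with no low-count filter and with DESeq2. The carbon and NADPH list had 0 to 1 when a mouse was left out; the call was Pdk4, without WT mouse 2. The causes were not tested.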
